A study of Populus tremula x Populus alba with 72 samples.

Results

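Isochorismate synthase ICS1 of poplar (Potri.012G070000) was followed across leaf RNA of 72 libraries, 4 for each of 18 groups. It is 1 of the 34699 genes listed in the deposited table and was taken by its identifier. The trees were young micropropagated hybrid poplars (Populus tremula x alba) of a single clone, INRAE 717-1B4, so the groups share one genotype. They stood in charcoal-filtered air (the controls), or in the same air with 80 ppb or 100 ppb ozone supplied during the day. Expanded and growing leaves were sampled on days 2, 8 and 13 of the exposure. The table gives identifiers without names or product descriptions, so the name ICS1 comes from outside it, neighbouring steps of the pathway could not be listed, and the labelled tissue was not checked against leaf marker genes.

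Isochorismate synthase is a plastid enzyme that turns chorismate, the end product of the shikimate pathway, into isochorismate. Plants use isochorismate to make phylloquinone, an electron carrier of photosystem I, and in Arabidopsis also to make the defence hormone salicylic acid, for which pathogens and ozone raise the ICS1 transcript. In poplar the gene has been linked mainly to phylloquinone, and salicylic acid mainly to the route through phenylalanine. Going by its title, the study looked at ozone-responsive genes in the course of leaf development, and ICS1 was compared between leaf positions, between days and between air treatments.

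Per library, the reads on all listed genes summed to between 23.2 M and 54.3 M (M, mega-reads). Of these, 432 to 3122 fell on ICS1 (median 1133), which gives a counting error of 1.79% to 4.81% per library. Between libraries of one group the coefficient of variation ran from 2.85% to 24.0%. Within groups the SD of the log2 level of ICS1 was 0.19, against a median of 0.21 over the 20643 genes with a mean of at least 100 normalised reads. The levels below are normalised read counts, given as mean ± SD with n = 4, and changes are log2 values ± SE from one limma model of all 72 libraries. The SE and the intervals take one spread of ICS1 for all groups. The log2 SD of single groups ran from 0.041 (growing leaves at 80 ppb, day 8) to 0.36 (expanded controls, day 13). The labels do not say whether libraries of a group came from separate trees, and p-values therefore reflect the spread between libraries, which may be technical. In whole-leaf RNA, a smaller share of cells that express the gene and less transcript per cell cannot be told apart.

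**Figure D1:**
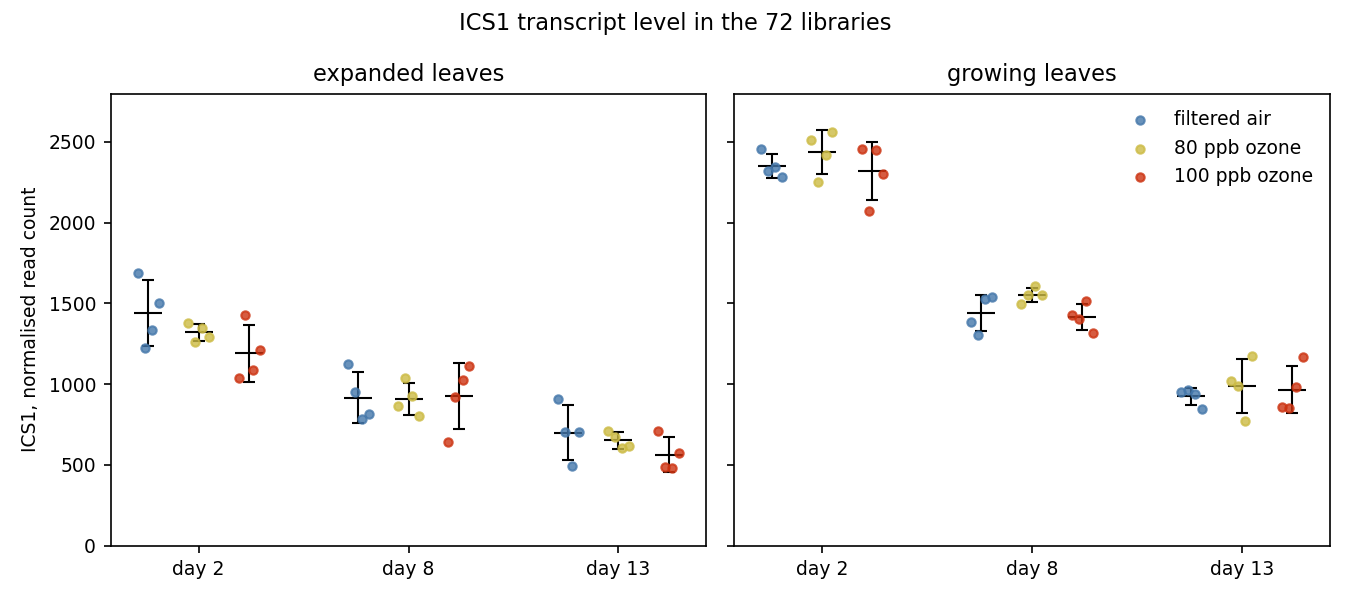
Normalised read count of ICS1 (vertical axis, linear from 0) by day for expanded leaves (left) and growing leaves (right). Each point is 1 library, coloured by air treatment, and the black bars are the mean and SD of 4 libraries. Levels step down with the day in both panels, from 2349.6 ± 75.1 to 924 ± 54.1 in growing controls, while ozone and control libraries of a day overlap.

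ICS1 was higher in growing than in expanded leaves on every day. On day 2 the 4 growing control libraries held 2456, 2320.2, 2342 and 2281 normalised reads. The 4 expanded control libraries held 1691, 1225, 1337 and 1504. Every growing library was therefore above every expanded one, and the group means, 2349.6 ± 75.1 and 1439 ± 203, differed 1.64-fold (log2 difference 0.72 ± 0.13, adjusted p = 6.08e-06, 95% interval of the fold 1.36 to 1.98). Of all 27780 genes tested, 63% passed the test in this comparison, so a difference between the leaf positions was common.

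On day 8 the growing controls held 1385, 1308, 1525 and 1539 and the expanded controls 1124, 948, 784 and 812. The groups again did not overlap, and growing leaves were 1.58-fold higher (0.66 ± 0.13, adjusted p = 3.52e-05), in a comparison where 54.4% of genes were called. With equal totals the day 8 difference was 0.35 and still passed (adjusted p = 0.00921), with the median of all genes at −0.32. On day 13 the growing controls held 951, 961, 941 and 844, and the expanded controls 906, 701, 493 and 703. Here expanded replicate 1 lay above growing replicate 4, and the difference was 1.35-fold (0.43 ± 0.13, adjusted p = 0.0136, 25% of genes called). The exact two-sided permutation test gave p = 0.0286 on days 2 and 8, the smallest it can give for 4 against 4 libraries, and p = 0.0571 on day 13. The day 13 call was lost without expanded control replicate 3 (0.27, adjusted p = 0.141), in a fit of the 8 libraries compared (adjusted p = 0.134) and with all libraries scaled to equal totals (0.18, adjusted p = 0.207), which put the median of all genes at −0.26. Over the 12 other settings the adjusted p ranged from 0.00865 to 0.207.

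The same order of the leaf positions held in ozone, in comparisons added after the data were seen. At 80 ppb growing leaves were 1.84-fold, 1.72-fold and 1.51-fold higher than expanded leaves on days 2, 8 and 13. At 100 ppb they were 1.96-fold, 1.56-fold and 1.72-fold higher. No growing library overlapped the expanded ones in any of these 6 comparisons, and adjusted p-values were from 8.7e-09 to 0.000587. The shares of genes called were 63.7%, 50.2% and 32% at 80 ppb and 66%, 61.8% and 34.4% at 100 ppb. With equal totals the log2 difference on day 8 went from 0.78 to 0.42 at 80 ppb and from 0.64 to 0.30 at 100 ppb, and that of day 13 at 80 ppb from 0.59 to 0.32. These 3 still passed (adjusted p = 0.00208, 0.0211 and 0.0214), with the median of all genes at −0.38, −0.36 and −0.27.

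Whether the lead of growing over expanded control leaves changed with time was tested directly, in a contrast added after the data were seen. The log2 difference on day 13 was lower than that on day 2 by 0.29 (−0.29 ± 0.19, 95% interval −0.67 to 0.09), which did not pass the test (adjusted p = 0.206), although 50.5% of genes did. Without expanded control replicate 3 of day 13 the value was −0.44 and passed (adjusted p = 0.0412). Over all 16 fits that left out 1 library the value ran from −0.44 to −0.15, with an adjusted p of up to 0.517. With equal totals it was −0.62 (adjusted p = 0.00145, range over the 12 other settings 0.00145 to 0.251), where the median of all genes was −0.35.

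**Figure D2:**
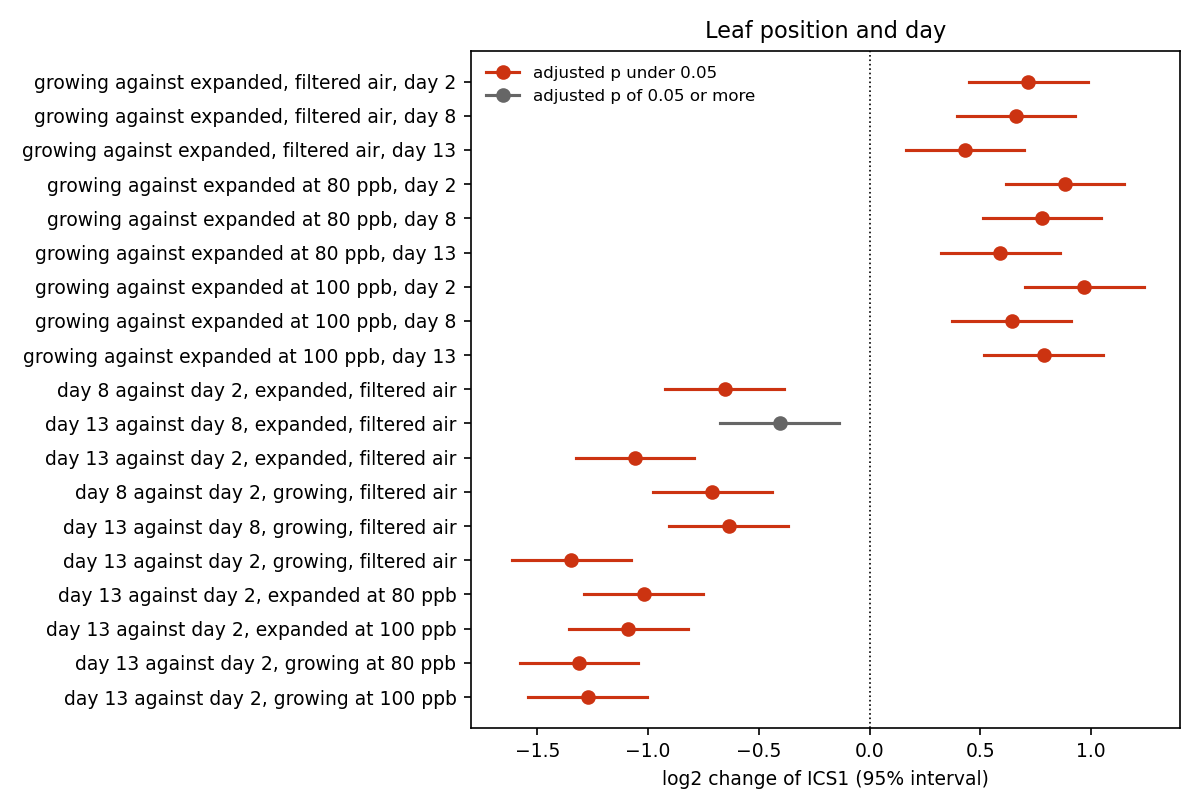
Log2 change of ICS1 (horizontal axis) with its 95% interval for comparisons of leaf position and of day, each a row. Points to the right of the dotted line are higher in growing leaves or on the later day; all 9 position comparisons lie to the right and all 10 day comparisons to the left, with day 13 against day 8 in expanded leaves in filtered air the only one whose adjusted p (0.108) did not pass.

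Mean ICS1 levels fell with the day in filtered air. The age of the leaf cannot be told apart here from the harvest or the conditions of a day. In growing controls the mean dropped from 2349.6 ± 75.1 on day 2 to 1439 ± 112 on day 8, to 0.611 of its level (−0.71 ± 0.13, adjusted p = 1.31e-05, 51.9% of genes called). From day 8 to day 13 it dropped to 924 ± 54.1, or 0.643 of the day 8 level (−0.64 ± 0.13, adjusted p = 0.000105, 43.5% of genes called). No library of a later day reached the lowest library of the day before it. Over the whole time the growing leaves came down to 0.393 of the day 2 level (−1.35 ± 0.13, adjusted p = 3.12e-13, 70.1% of genes called). This change was larger in size than that of 71.5% of the tested genes.

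In expanded controls the mean went from 1439 ± 203 on day 2 to 917 ± 155 on day 8, 0.636 of its level (−0.65 ± 0.13, adjusted p = 0.000106, 37% of genes called). With equal totals this change was −0.40 and still passed, with the median of all genes at 0.27. The mean of day 13 was 701 ± 168, and its difference from day 8 (−0.41 ± 0.13, exact permutation p = 0.0857) did not pass over all genes (adjusted p = 0.108), in a comparison with 1.9% of genes called. Without expanded control replicate 1 of day 13, which held 906, that difference was −0.54 and passed (adjusted p = 0.00878). Over all 8 fits that left out 1 library the difference ran from −0.54 to −0.25, with an adjusted p of up to 0.454. From day 2 to day 13 the level fell to 0.48 (−1.06 ± 0.13, adjusted p = 3.12e-09, 50.9% of genes called), and the libraries of the first and last day did not overlap.

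The decline was also seen in ozone, again in comparisons added after the data were seen. From day 2 to day 13 expanded leaves came to 0.493 of their level at 80 ppb (−1.02 ± 0.13) and to 0.47 at 100 ppb (−1.09 ± 0.13). Growing leaves came to 0.403 at 80 ppb (−1.31 ± 0.13) and 0.414 at 100 ppb (−1.27 ± 0.13). All 4 passed the test, with adjusted p-values of 5.45e-09, 3.77e-10, 7.23e-13 and 1.27e-12, where 56.3%, 65%, 71.8% and 76.7% of genes were called. The lowest library of day 2 lay above the highest of day 13 in each. With equal totals the change in expanded leaves at 80 ppb was −0.60 and still passed (adjusted p = 1.5e-05), with the median of all genes at 0.43.

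The means of later growing leaves lay close to those of earlier expanded leaves. The growing controls of day 8 (1439 ± 112) lay at 1.00 times the expanded controls of day 2 (1439 ± 203), with a 95% interval of 0.835 to 1.21 (adjusted p = 0.986, 14.1% of genes called). The growing controls of day 13 (924 ± 54.1) lay at 1.02 times the expanded controls of day 8 (917 ± 155), with an interval of 0.845 to 1.22 (adjusted p = 0.948, 2.95% of genes called). Both pairs were chosen after the levels were seen.

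Of 12 comparisons of ozone with the control leaves of that position and day, none passed the test by limma or edgeR and 1 passed by DESeq2, and the ozone and control libraries overlapped in every one. The fitted ratios to the control ran from 0.811 to 1.08, and the 12 intervals together reached from 0.673 to 1.30. By limma 2 of the 12 had an unadjusted p under 0.05, both in expanded leaves at 100 ppb.

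In expanded leaves at 100 ppb on day 2 the libraries held 1038, 1431, 1087 and 1210.2, against 1691, 1225, 1337 and 1504 in the controls. The mean of 1191 ± 175 was 0.828 of the control mean on the log2 scale (−0.27 ± 0.13, 95% interval of the ratio 0.687 to 0.997, adjusted p = 0.195), and 8.34% of genes were called. Replicate 2 at 100 ppb lay among the controls, and the exact permutation test gave p = 0.114.

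On day 8 the 100 ppb libraries held 644, 923, 1023 and 1115 and their mean, 926 ± 204, was close to the control mean of 917 ± 155. The log2 change was 0.00 ± 0.13 (interval of the ratio 0.83 to 1.20, adjusted p = 1), while 19.7% of genes were called. Replicate 1 was the lowest of this group, and the other libraries spread over the range of the controls.

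By day 13, when 41.1% of genes were called, the 100 ppb libraries held 711, 485, 478 and 576, against 906, 701, 493 and 703 in the controls. The ratio was 0.811 (−0.30 ± 0.13, interval 0.673 to 0.976), with an adjusted p of 0.0634 by limma and an exact permutation p of 0.2. This change was larger in size than that of 45.4% of tested genes. The log2 SD was 0.36 in these controls and 0.27 at 100 ppb, above the 0.19 within groups over the whole series. The interval takes the shared spread and is therefore narrower than one from these groups alone would be. Whether the comparison passed depended on the setting and on single libraries. It passed by DESeq2 (adjusted p = 0.0498) and with equal totals (−0.37, adjusted p = 0.0106). Of the 8 fits that left out 1 library, 2 passed. These were the fits without control replicate 3 (−0.46, adjusted p = 0.00555) and without 100 ppb replicate 1 (−0.42, adjusted p = 0.0126). The value over the 8 fits ran from −0.46 to −0.17, with an adjusted p of up to 0.368. Over the 12 other settings the adjusted p ranged from 0.0106 to 0.315.

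At 80 ppb the expanded leaves held 1381, 1259, 1349 and 1292 on day 2, inside the range of the controls. On day 8 they held 865, 1037, 928 and 802, and on day 13 they held 710.5, 673, 603 and 619. The ratios to the controls were 0.924, 0.996 and 0.949, with adjusted p-values of 1, 1 and 0.803 and with 0.0108%, 0.018% and 1.75% of genes called.

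Growing leaves at 100 ppb held 2458, 2074, 2449.8 and 2299.9 on day 2, with a ratio to the control of 0.986 (interval 0.819 to 1.19). On day 8 they held 1430.5, 1402, 1518 and 1319.8, a ratio of 0.986 (0.819 to 1.19), and on day 13 they held 861, 853, 982 and 1167, a ratio of 1.04 (0.861 to 1.25). None passed, with adjusted p-values of 0.998, 1 and 0.815. On day 13, 28% of all genes were called in this comparison, against 0.054% on day 2 and 0.0396% on day 8.

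Growing leaves at 80 ppb had the highest level measured, on day 2, with 2511, 2250.4, 2419 and 2561. On day 8 they held 1499, 1549, 1607 and 1552 and on day 13 they held 1022, 991, 772 and 1175. The ratios to the controls were 1.04, 1.08 and 1.06, each with an adjusted p of 1. On days 2 and 8 limma called 0% of genes at 80 ppb, while unadjusted p-values lay under 0.05 for 584 and 1240 genes; edgeR called 0 on both days and DESeq2 0 and 1. On day 13 limma called 0.0144%.

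**Figure D3:**
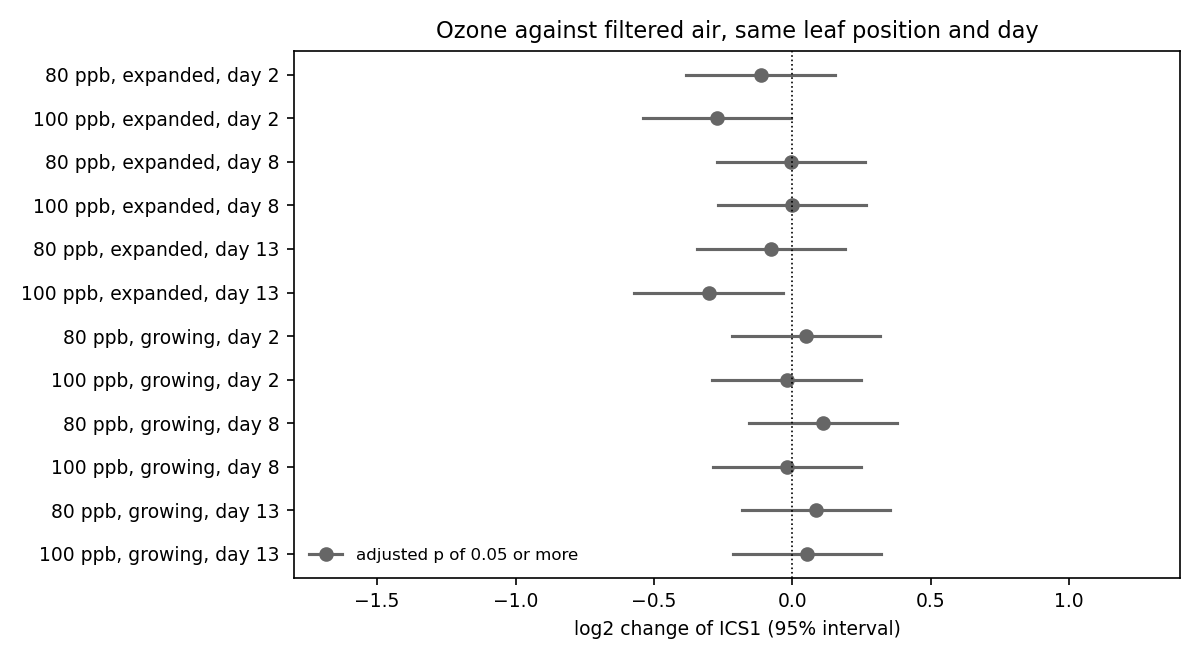
Log2 change of ICS1 at 80 or 100 ppb ozone against filtered air (horizontal axis) with its 95% interval, a row for each leaf position and day. All 12 adjusted p-values were 0.05 or more. The 2 intervals that lie wholly below the dotted line are expanded leaves at 100 ppb on day 2 (−0.27) and day 13 (−0.30). All intervals take one spread shared by the groups.

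Averaged over the 3 days, a contrast added after the data were seen, expanded leaves at 100 ppb had 0.875 of the control level of ICS1 (−0.19 ± 0.08, interval of the ratio 0.786 to 0.974, adjusted p = 0.0347). In that contrast 48.6% of all genes were called, and the change was larger in size than that of 42.7% of all tested genes. The call was lost in a fit of the compared libraries only (adjusted p = 0.156, range over the 12 other settings 0.0278 to 0.156). It was also lost in 10 of 24 fits that left out a library. These were the fits without control replicates 1 and 4 and 100 ppb replicates 1 and 3 of day 2, and without control replicates 1 and 2 and 100 ppb replicate 1 of day 8. On day 13 they were those without control replicate 1 and 100 ppb replicates 2 and 3. The value farthest from the full fit was −0.14 (adjusted p = 0.124), without 100 ppb replicate 1 of day 8. In growing leaves the ratio at 100 ppb was 1.00 (0.901 to 1.12, adjusted p = 0.979, 13.7% called). At 80 ppb the ratios were 0.956 in expanded (0.858 to 1.06, adjusted p = 0.741, 0.911% called) and 1.06 in growing leaves (0.951 to 1.18, adjusted p = 1, 0.0036% called).

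A difference of the 100 ppb response between the leaf positions was not shown. Growing minus expanded, the response differed by 0.25 ± 0.19 on day 2, −0.02 ± 0.19 on day 8 and 0.36 ± 0.19 on day 13, with adjusted p-values of 0.528, 0.971 and 0.348. The shares of genes called were 0.392%, 0.0684% and 3.51%. With equal totals the day 13 value was 0.56 and passed (adjusted p = 0.0306, range over the 12 other settings 0.0306 to 0.576), where the median of all genes was 0.23. Without expanded control replicate 1 of day 13 it was 0.22. Over the mean of the days the difference was 0.20 ± 0.11 (interval −0.02 to 0.41, adjusted p = 0.263), with 7.33% of genes called.

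Nor did the response at 100 ppb pass a test of change from day 2 to day 13. The change of the response was −0.03 ± 0.19 in expanded leaves (interval −0.41 to 0.35, adjusted p = 0.94, 13.2% called) and 0.07 ± 0.19 in growing leaves (−0.31 to 0.45, adjusted p = 0.84, 13.5% called).

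The ozone doses were compared directly as well. In expanded leaves the ratio of the 100 ppb level to the 80 ppb level was 0.896 on day 2, 1.00 on day 8 and 0.855 on day 13, with adjusted p-values of 0.501, 0.99 and 0.202. The called shares of all genes were 6.84%, 8.15% and 29.2%. In growing leaves the ratios were 0.952, 0.913 and 0.978, with adjusted p-values of 0.923, 1 and 0.906 and 0%, 0% and 14.9% of genes called by limma. On days 2 and 8, 2267 and 818 genes had an unadjusted p under 0.05, edgeR called 0 on both days and DESeq2 4 and 36. None of the 6 ICS1 comparisons had an unadjusted p under 0.05 by limma, and none passed by edgeR or DESeq2. The 6 intervals together reached from 0.71 to 1.21, and of the other settings only equal totals brought one past the threshold, in expanded leaves on day 13 (−0.37, adjusted p = 0.0152, range over the 12 settings 0.0152 to 0.26).

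Ranked by mean level, the 18 groups lay in an order that followed leaf position and day. The 3 growing groups of day 2 were at the top, at 2435 ± 137 in 80 ppb, 2349.6 ± 75.1 in filtered air and 2320.4 ± 179.6 in 100 ppb ozone. A single step separated neighbours in this order by the test: the growing leaves of day 2 at 100 ppb were above the growing leaves of day 8 at 80 ppb (1552 ± 44.3) by 0.58 on the log2 scale (adjusted p = 0.000215). Below it the other growing groups of day 8 and the expanded groups of day 2 lay between 1439 ± 203 (expanded controls of day 2) and 1191 ± 175 (expanded leaves at 100 ppb on day 2). The growing groups of day 13 and the expanded groups of day 8 lay between 989.9 ± 166 and 908 ± 100.4. The 3 expanded groups of day 13 were lowest, at 701 ± 168 in filtered air, 651 ± 49.6 at 80 ppb and 563 ± 108 at 100 ppb. The other 16 of 17 neighbouring pairs did not pass. The pairs were set by sorting these same means, which puts close groups side by side. How many of them passed is therefore no support for the order, and the share of all genes called was not counted for them. The highest mean was 4.33 times the lowest.

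**Figure D4:**
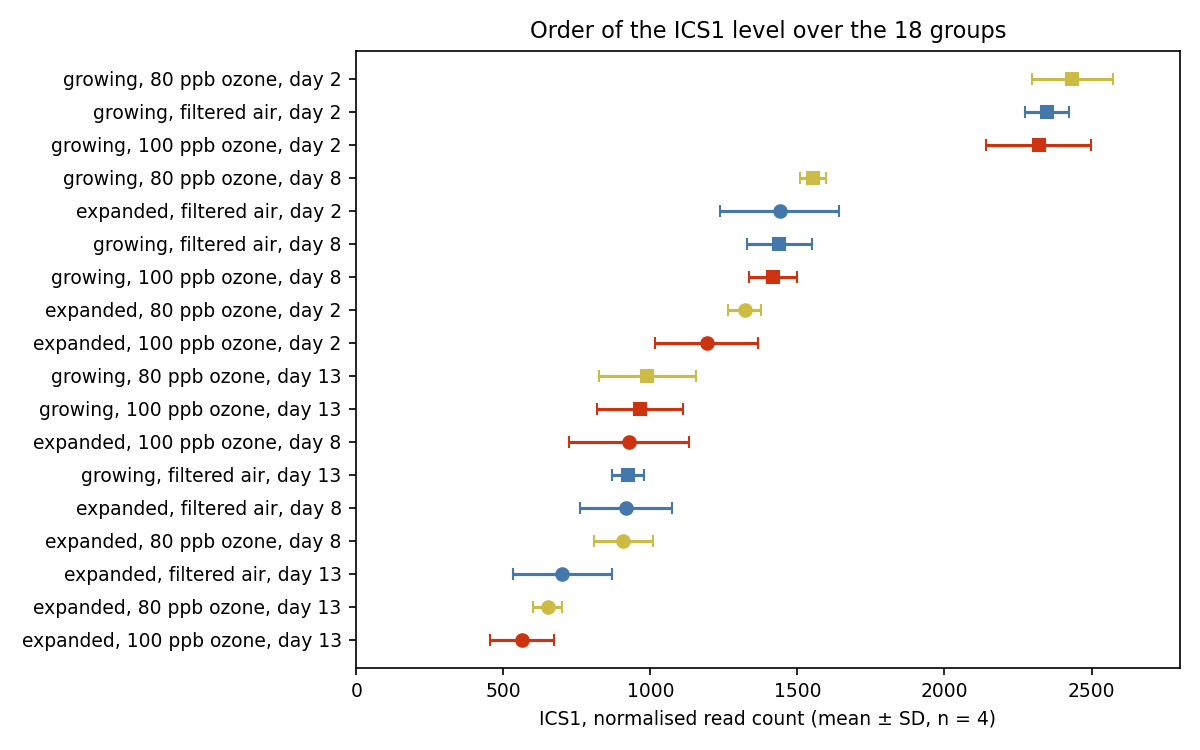
Mean ± SD (n = 4) of the normalised read count of ICS1 (horizontal axis, linear from 0) in the 18 groups, ranked from highest to lowest. Squares are growing and circles expanded leaves, in blue for filtered air, yellow for 80 ppb and red for 100 ppb ozone; the groups sort by leaf position and day, from 2435 ± 137 to 563 ± 108, and the treatments of one leaf position and day stay near each other.

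Of the sum of squares of the log2 level of ICS1 over the 72 libraries, day held 58.6%, leaf position 32.3% and air treatment 0.542%. The spread within groups held 6.91%, and no interaction term held more than 0.692%. Over all tested genes the median shares were 28.1% for day, 16.2% for leaf position and 2.83% for air. The share of day was higher in ICS1 than in 99.2% of tested genes, that of leaf position higher than in 86% and that of air higher than in 16.3%. These shares describe the libraries and were not tested. The genes ranked here include those of low counts, unlike the genes used for the SD within groups. By size, the control change from day 2 to day 13 was larger than in 71.5% (growing) and 77.6% (expanded) of tested genes.

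The genes whose pattern was most like that of ICS1 were sought among the other 20642 genes with a mean of at least 100 normalised reads, by Pearson's correlation of the log2 group means over the 18 groups. Potri.011G139600 was the most like (r = 0.992), with means of 2539 in growing controls of day 2, 1537 in expanded controls of day 2 and 874 in expanded controls of day 13. Potri.018G024500 was next (r = 0.991), at 235, 146 and 83.9 in the same groups. The most unlike were Potri.006G184200 (r = −0.990), at 335, 427 and 698, and Potri.004G083300 (r = −0.984), at 108, 412 and 2606. The table gives no product for these identifiers.

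Such likeness was common: 2618 genes (12.7%) had a correlation above 0.9 with ICS1 and 2462 (11.9%) one below −0.9, and the 18 groups share their libraries and their differences of day and leaf position. Over the 72 single libraries Pearson's r was 0.951 and 0.903 for the 2 most like genes, which ranked 70 and 934 there. By Spearman's correlation over the 18 group means they ranked 541.5 and 162. Their places at the top therefore rest on Pearson's correlation of the group means. For the 2 most unlike genes Pearson's r over the 72 libraries was −0.933 and −0.922.

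**Figure D5:**
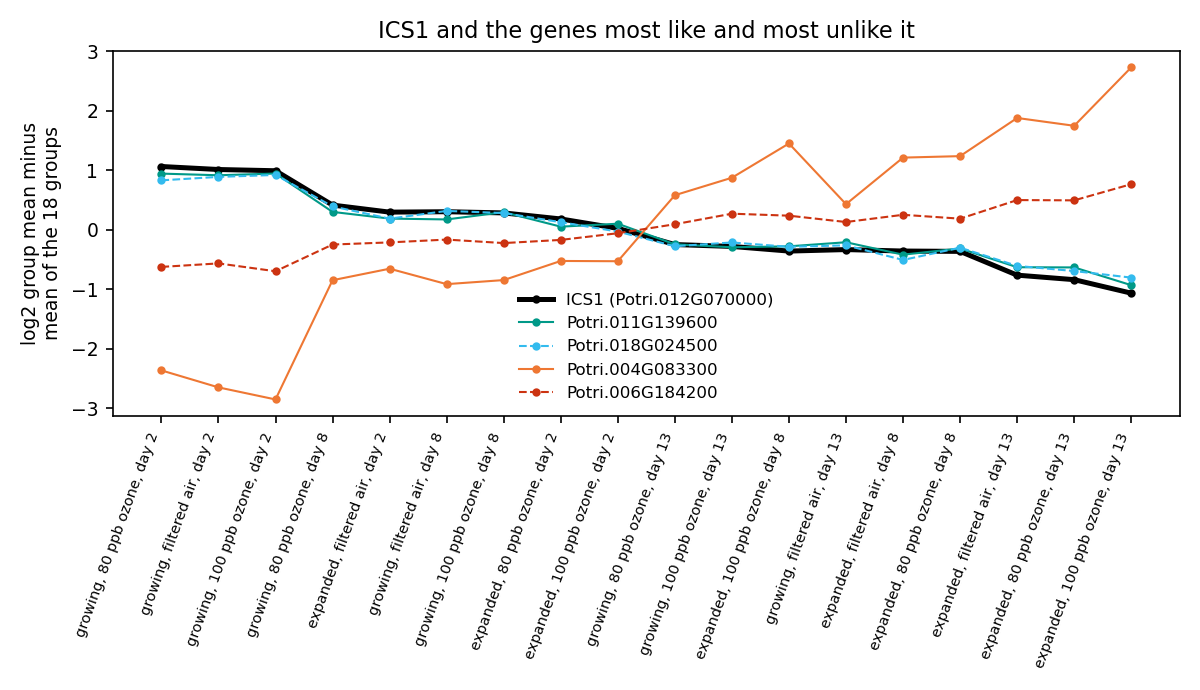
Log2 group mean minus the mean of the 18 groups (vertical axis) for ICS1 (thick black line), the 2 genes most like it and the 2 most unlike it, with groups ordered by the level of ICS1. Potri.011G139600 and Potri.018G024500 run along the line of ICS1 (r = 0.992 and 0.991), and Potri.006G184200 and Potri.004G083300 run opposite to it (r = −0.990 and −0.984).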

How the data were processed

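Per the labels' protocols, messenger RNA was selected on poly-T beads, and stranded libraries were sequenced from both ends. The authors deposited a signal for each gene in each library, under the name normalized counts. The tools listed, per the submitters' processing notes, were DESeq2 1.24.0, Subread 1.6.1, featureCounts and TopHat2 2.12, without stated roles. A genome build was not given in the sources used here. In each column all values were whole multiples of one step (100% within 0.01 reads, largest deviation 0.00061), so whole reads could be recovered.

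The 27780 genes that reached 10 in 4 or more libraries were tested on log2(value + 1), which slightly understates changes of low genes, with limma 3.58.1 in R 4.3.3. The model had a mean per group, 54 residual degrees of freedom and a trended eBayes prior. P-values were adjusted by Benjamini-Hochberg over all tested genes within a contrast, called at 0.05, two-sided. There were 32 planned contrasts and 18 added after the data were seen. Exact permutation tests (two-sided) used the 70 splits of 8 libraries. The member, lists and tests were chosen with earlier results of these data known. Gene lists by product description could not be applied, since the deposited table gives none. Genes named by likeness are the 2 highest and 2 lowest correlations. Same-numbered libraries deviated together (every correlation over 0.1) in 1 of 39 pairs of groups, growing against expanded leaves at 100 ppb on day 8, and the labels do not say what a number marks, so no replicate block was used.

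The 12 other settings were TMM scaling, equal totals, a filter at 50 or none, pseudocounts of 0.25 and 8, robust eBayes, 2 replicate blocks, the compared libraries alone, and, on recovered reads, DESeq2 1.42.0 and the quasi-likelihood test of edgeR 4.0.16. Each library was also left out in turn. For 100 ppb against control in expanded leaves on day 13, simulated counts (27472 genes) held 100 genes with a 2-fold change, of which limma called 67%, edgeR 67% and DESeq2 76%. Of another 100 with a 4-fold change each tool called 98%. False calls numbered 1, 3 and 33. No other genes changed in the simulation, while limma called 41.1% of genes in the real comparison, so these rates may not carry over to it. A change as small as that of ICS1 was not simulated. On the real reads of that comparison edgeR called 11748 genes and DESeq2 12061, against 11413 by limma.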

Additional observations from a re-analysis of the deposited data

Results flagged for a closer look

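Replicate 4 of the growing controls of day 13 held 844 normalised reads of ICS1, below the 941 to 961 of the other 3 libraries, and stood farther from them than Dixon's test allows for 4 samples at the 95% level. It was the only one of the 18 groups with such a library, and chance alone gives about 1 in 20.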

How the results depend on the processing

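Of 19 comparisons of ICS1 called by limma, 17 kept their call under the 12 other settings and 17 without each library in turn. The exceptions, growing against expanded controls on day 13 and 100 ppb in expanded leaves over the mean of days, were lost with the compared libraries alone (0.43 and −0.19, adjusted p = 0.134 and 0.156), and the first also with equal totals (0.18, adjusted p = 0.207). The cause was not tested. Equal totals also brought 6 calls that were kept to values over 1.5 times smaller. Equal totals brought past the threshold 100 ppb against control (−0.37) and against 80 ppb (−0.37) in expanded leaves on day 13, the difference of the 100 ppb response between leaf positions on day 13 (0.56), and the change of the lead of growing over expanded controls from day 2 to day 13 (−0.62). DESeq2 did so for 100 ppb against control in expanded leaves on day 13 (−0.31, adjusted p = 0.0498). Equal totals put the median of all genes at −0.32 and −0.26 for growing against expanded controls on days 8 and 13, and at up to 0.43 between days.

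Signs turned in comparisons that were not called under either setting. With TMM scaling these were 80 ppb against control (0.00123) and 100 against 80 ppb (−0.0031) in expanded leaves on day 8, 100 ppb over the mean of days in growing leaves (−0.0045), and growing controls of day 8 against expanded ones of day 2 (−0.0031). With equal totals they were 80 and 100 ppb in expanded leaves on day 8 (0.023 and 0.060) and 80 ppb there on day 13 (0.0043), 100 ppb on days 2 and 8 in growing leaves (0.014 and 0.011), 100 against 80 ppb in growing leaves on day 13 (0.051), and growing controls of days 8 and 13 against expanded ones of days 2 and 8 (−0.049 and −0.13). EdgeR gave 0.011, −7.36e-05 and −0.011 for 100 ppb in expanded leaves on day 8, 100 ppb over the mean of days in growing leaves, and growing controls of day 8 against expanded ones of day 2. DESeq2 gave 0.015 and −0.00054 for the first and the last.

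Leaving out a library in turn, values ran as follows. Ozone against control in expanded leaves gave −0.24 to −0.14 (100 ppb, mean of days), −0.076 to 0.097 and −0.10 to 0.16 (80 and 100 ppb, day 8), and −0.23 to 0.058 and −0.46 to −0.17 (80 and 100 ppb, day 13). In growing leaves it gave −0.050 to 0.032 (100 ppb, day 2), −0.065 to 0.014 (100 ppb, day 8), −0.0032 to 0.20 (80 ppb, day 13), −0.042 to 0.11 (100 ppb, day 13) and −0.028 to 0.023 (100 ppb, mean of days). For 100 against 80 ppb it was −0.094 to 0.17 (expanded, day 8) and −0.15 to 0.056 (growing, day 13). For the change of the 100 ppb response from day 2 to 13 it was −0.19 to 0.10 (expanded) and −0.021 to 0.13 (growing), and for its difference between leaf positions −0.18 to 0.080 on day 8 and 0.22 to 0.51 on day 13. Growing against expanded controls on day 13 gave 0.27 to 0.56, that lead on day 13 less day 2 −0.44 to −0.15, and day 13 against day 8 in expanded controls −0.54 to −0.25. Growing controls of days 8 and 13 against expanded ones of days 2 and 8 gave −0.067 to 0.088 and −0.046 to 0.13. Neighbours in the order of levels that differed numbered 2, not 1, with equal totals and without expanded control replicate 1 of day 13.

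The replicate number as a block changed no call: for growing against expanded controls on day 13 the value stayed at 0.43 (adjusted p = 0.0136), or 0.00865 with same-numbered leaves of a day and treatment as a random block (estimated correlation 0.102). At most 3 of 4 libraries of a group correlated best with their own number.

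The number of all genes called moved by more than 1.5 times in 70 of 600 pairs of comparison and setting. With the compared libraries alone it was 0, 1869 and 6579 for 100 ppb in expanded leaves on days 2, 8 and 13 (against 2316, 5468 and 11413) and 1874 for growing against expanded controls on day 13 (against 6938; 11800 with equal totals). For 80 ppb in expanded leaves on day 13 it was 0 with those libraries alone, 766 by edgeR and 1120 by DESeq2, against 485. For 100 against 80 ppb in expanded leaves it was 0, 1 and 5334 on the 3 days (against 1901, 2264 and 8117) with those libraries alone, and 2998 and 3736 by DESeq2 on the first 2 of them. In growing leaves on day 13 it was 0 with those libraries alone, against 4150. For the difference of the 100 ppb response between leaf positions on day 2, 109 genes were called, against 186 with TMM scaling, 31 with equal totals, 561 with same-numbered leaves as a random block, 0 with the compared libraries alone, 252 by edgeR and 696 by DESeq2. On day 13 it was 976, against 1918 with equal totals, 17 with those libraries alone and 1517 by DESeq2, and over the mean of days 2036, against 1307 alone. With those libraries alone it was also 0 for day 13 against day 8 in expanded controls (528 in the full fit), 1303 for the change of the response in expanded leaves (3658) and 7410 for growing controls of day 8 against expanded ones of day 2 (3919). DESeq2 gave 542 for 80 ppb over the mean of days in expanded leaves (253 by limma) and 1309 for growing controls of day 13 against expanded ones of day 8 (820). The comparisons with 0 to 19 genes called by limma moved to between 0 and 235.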
